A study of Mus musculus with 24 samples.

Results

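The 10 genes described here mark the endothelium that lines the liver sinusoids, namely Stab1, Stab2, Lyve1, Clec4g, Oit3, Kdr, Pecam1, Btnl9, Fcgr2b and Gpr182. They were chosen by name, and all 10 were found among the 54532 genes of the count table. The livers came from male C57/BL6J mice aged 8 to 10 weeks after a fast of 24 h. Each of the 6 genotypes was represented by 4 livers, with 1 RNA-seq library per liver. Rab30KO mice carried a whole-body deletion of Rab30 exon 4, and Rab30 Ctrl mice were their wild-type littermates. Rab30L-/- mice had lost Rab30 and Cpt2L-/- mice had lost Cpt2, the inner membrane carnitine palmitoyltransferase of fatty acid oxidation, through floxed alleles and a Cre driven by the albumin promoter. DKO mice had lost both genes in the same way, and the floxed controls (ff;ff) were littermates of DKO that carried both floxed pairs of alleles without Cre. The albumin promoter is active in hepatocytes, so the liver-specific genotypes were not aimed at the endothelial cells described here, whereas the whole-body allele covers them.

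Liver sinusoidal endothelial cells form a thin, perforated wall without a firm basement membrane between the blood and the hepatocytes. They take up waste molecules and small immune complexes from the blood through scavenger and Fc receptors, and they send Wnt, R-spondin and BMP signals to the neighbouring hepatocytes. Stab1 and Stab2 encode stabilins, large scavenger receptors. Lyve1 encodes a hyaluronan receptor, Clec4g a C-type lectin, Fcgr2b the inhibitory Fc receptor for IgG, and Gpr182 an atypical chemokine receptor. Kdr encodes the main VEGF receptor and Pecam1 a junction protein, and both are made by endothelium of most vessels. Oit3 encodes a secreted protein with a zona pellucida domain, and Btnl9 a butyrophilin-like membrane protein. Several of the 10 are not limited to sinusoids: Stab1 and Fcgr2b are also made by macrophages, and Lyve1 by lymphatic vessels.

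The libraries held 11801027 to 24497738 counts, with a median of 14358966, and mitochondrial transcripts took 4.31% to 9.25% of them. Counting noise was exceeded by the differences within all 36 pairs of same-genotype libraries. Rab30 ranged from 5.47 to 17.1 CPM (counts scaled to library size) in Rab30KO and from 6.53 to 29.8 CPM in Rab30 Ctrl, and Cpt2 from 94.9 to 165 CPM in Cpt2L-/- and from 129 to 142 CPM in the floxed controls. These whole-gene counts include exons that the alleles leave in place, so they do not check the labels.

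Albumin RNA stood at 27527 CPM or more in every library, and the 10 markers were detected at a far lower level. Apart from Btnl9, every marker had at least 97 counts in every library. Btnl9 had 0 to 172 counts. In such bulk RNA, fewer endothelial cells and less of an RNA in each cell cannot be told apart.

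Of the 10 genes, 6 had an entry in the RefSeq promoter windows of build GRCm38.p6. Oit3, which passed a test between genotypes, had no such entry. The stretches upstream of 4 of the 6 are shown. Of these genes Clec4g and Btnl9 also passed a test between genotypes, and Stab1 and Stab2 varied together most closely from liver to liver. All 4 lie on the minus strand and are written 5′ to 3′ up to the first annotated exon, the longest with 250 bases. For Stab2 and Btnl9 the last 83 and 70 bases before the RefSeq start were left out because GENCODE M21 places an exon there. Capitals mark the letters AGGAAG, as in sites of ETS factors, or TATAAA, each on either strand. The capitals of Clec4g include a pair of AGGAAG matches that overlap.
Stab1, chr14:31168642-31168891: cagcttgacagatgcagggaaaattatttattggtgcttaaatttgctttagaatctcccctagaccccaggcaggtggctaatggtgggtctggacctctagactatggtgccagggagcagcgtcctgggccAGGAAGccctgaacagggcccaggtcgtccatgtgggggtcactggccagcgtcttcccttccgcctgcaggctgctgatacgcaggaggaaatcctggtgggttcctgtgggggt
Stab2, chr10:87008026-87008192: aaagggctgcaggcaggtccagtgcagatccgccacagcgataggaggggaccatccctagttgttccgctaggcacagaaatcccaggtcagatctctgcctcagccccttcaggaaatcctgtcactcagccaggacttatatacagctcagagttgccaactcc
Clec4g, chr8:3720652-3720901: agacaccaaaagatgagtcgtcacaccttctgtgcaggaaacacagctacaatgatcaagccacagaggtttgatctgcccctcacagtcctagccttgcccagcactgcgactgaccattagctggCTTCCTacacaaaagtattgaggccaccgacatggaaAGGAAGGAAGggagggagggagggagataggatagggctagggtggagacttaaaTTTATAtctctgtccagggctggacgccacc
Btnl9, chr11:49187160-49187339: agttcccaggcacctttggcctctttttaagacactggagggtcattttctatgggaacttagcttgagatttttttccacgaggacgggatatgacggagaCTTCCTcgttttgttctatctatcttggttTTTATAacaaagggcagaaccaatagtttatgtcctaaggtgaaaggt

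AGGAAG occurred within 250 bases before the start of 4 of the 6 matched genes, Stab1, Stab2, Clec4g and Btnl9, and in 29.5% of all 32851 such windows. In Stab2 its match, and in Btnl9 1 of 2 matches, lay in the part left out above. TATAAA occurred in 2 of the 6, Clec4g and Btnl9, and in 12.4% of all windows. In both genes these letters were on the strand opposite to the gene, and in Clec4g they began 31 bases before the start. None of the 6 windows held AGATAA, searched for GATA factors and present in 9.99% of all windows, or TGACTCA, searched for AP-1 and present in 4.46%. None held AACAAT, searched for SOX factors and present in 9.42%, or TGTTTAC, searched for forkhead factors and present in 3.17%. Such a match is a run of letters and no measured binding site.

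Compared per length, as read fragments scaled to gene length and library size (FPKM), Clec4g and Oit3 had the highest levels of the 10 in all 6 genotypes. Clec4g had mean levels from 9.61 FPKM in Cpt2L-/- to 17.4 FPKM in Rab30 Ctrl, and Oit3 from 7.73 FPKM in Rab30L-/- to 14.6 FPKM in Rab30 Ctrl. Stab1, Stab2, Lyve1, Kdr, Fcgr2b and Gpr182 took the places from 3 to 8 in an order that changed with genotype, with means between 4.35 and 12.8 FPKM. Pecam1 was 9th in each genotype, at 2.96 to 4.51 FPKM, and Btnl9 10th, at 0.153 to 1.34 FPKM. Genes next to each other in the middle of this order lay within the spread between livers.

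Clec4g had its highest mean in Rab30 Ctrl (42.9 CPM ± 8.82, SD, n = 4), followed by Rab30KO (38.4 ± 11.7) and the floxed controls (37.03 ± 5.14). DKO (28.9 ± 7.22), Rab30L-/- (25.3 ± 3.62) and Cpt2L-/- (23.3 ± 4.70) came after them, and every neighbouring pair of genotypes in this order overlapped. Oit3 was lowest in Rab30L-/- (21.4 CPM ± 2.03), where the highest liver (23.77 CPM) lay just under the lowest of any other genotype (23.81 CPM, a floxed control), and ranged from 29.0 to 40.7 CPM in the means of the other 5. Stab2 ranged over the 24 livers from 38.1 to 90.8 CPM, Pecam1 from 13.1 to 38.4 CPM and Gpr182 from 16.8 to 46.1 CPM. For each of these 3 genes both Rab30KO and Rab30 Ctrl had higher means than the other 4 genotypes.

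**Figure D1:**
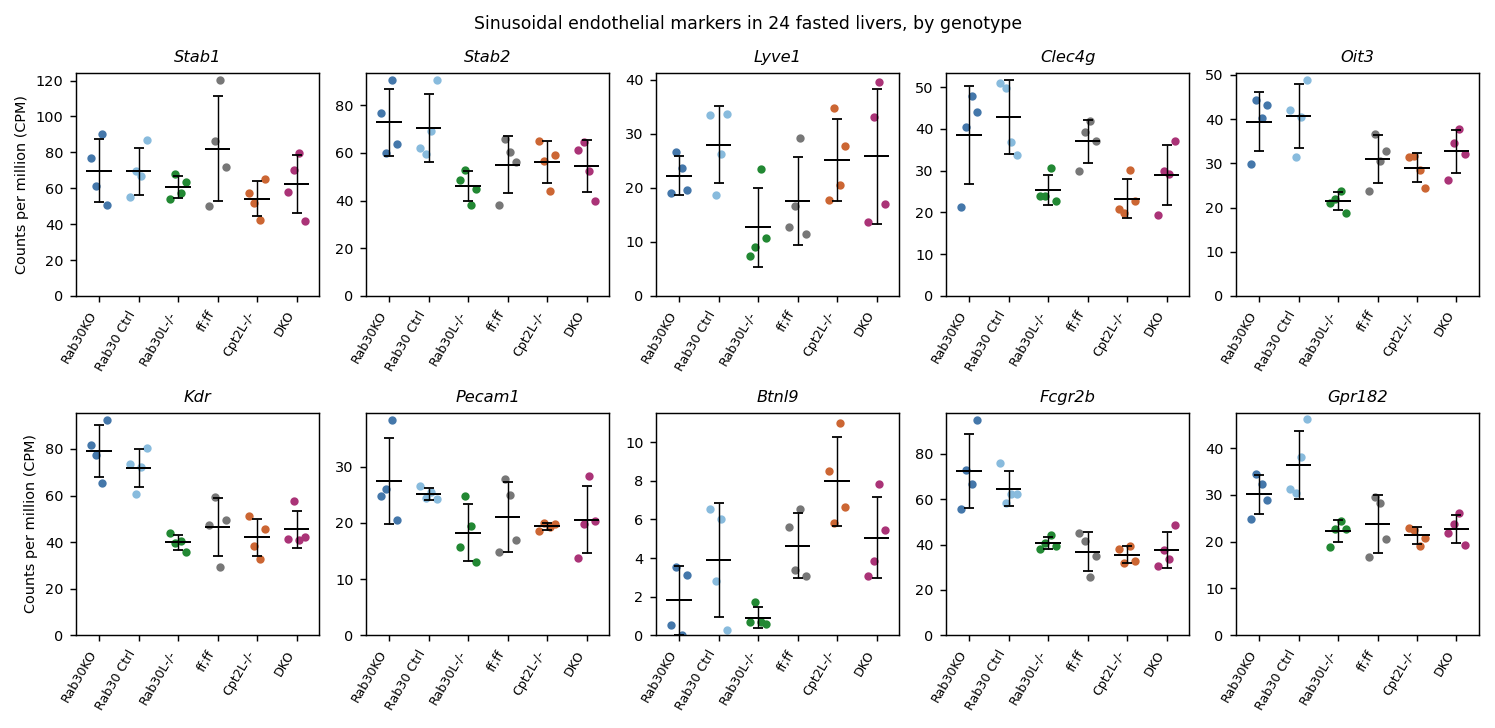
Level of each of the 10 sinusoidal markers (CPM, linear axis from 0) in the 4 livers of each genotype; points are livers, the wide bar is the mean and the whiskers are 1 SD. Kdr and Fcgr2b were higher in every Rab30KO and Rab30 Ctrl liver than in any other liver, and Btnl9 was at or below 1.70 CPM in every Rab30L-/- liver.

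Whole-body loss of Rab30 includes the endothelial cells, so the comparison of Rab30KO with Rab30 Ctrl asks whether the markers depended on Rab30 in a fasted liver that lacks it throughout. None of the 10 markers passed the edgeR quasi-likelihood test here, which called a gene at a Benjamini-Hochberg adjusted p under 0.05 and a change of at least 1.2-fold. None had an unadjusted p under 0.05, and DESeq2 and limma-voom called none either. Over all genes tested, 0.0220% were called. The median log2 fold change of the 10 was -0.01, against 0.00 for all genes. For the 9 markers other than Btnl9 the values lay between -0.33 for Lyve1 (95% interval -0.78 to 0.12) and 0.17 for Fcgr2b (-0.21 to 0.55). The lowest bound of these 9 intervals was 0.584-fold, for Lyve1, and the highest 1.47-fold, for Pecam1. The interval differed from gene to gene, with 0.881- to 1.40-fold for Kdr and 0.784- to 1.38-fold for Stab2. For Btnl9 the interval was far wider, from -3.61 to 1.38.

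Kdr read 81.6, 77.5, 65.4 and 92.5 CPM in the Rab30KO livers and 73.6, 60.5, 72.2 and 80.3 CPM in the Rab30 Ctrl livers. Stab2 read 76.6, 59.97, 90.7 and 63.9 CPM in Rab30KO and 61.9, 59.7, 69.3 and 90.8 CPM in Rab30 Ctrl. For Stab2 the ranges of the genotypes nearly coincided, and for Kdr they overlapped in part, with 2 Rab30KO livers above every Rab30 Ctrl liver and 1 Rab30 Ctrl liver below every Rab30KO liver. In the endothelial lists beside the markers, 0 of 14 other sinusoidal genes and 0 of 30 genes of endothelium in general were called. Their medians were 0.14 and -0.04 on the log2 scale, and 11 of the 14 and 13 of the 30 had values above 0. Of 12 Kupffer cell genes 10 were above 0, with a median of 0.42, and none was called. Their sums ran from 339 to 1585 CPM in Rab30KO and from 440 to 743 CPM in Rab30 Ctrl. The part of these cells in the marker values was not tested.

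Removing Rab30 from hepatocytes was compared with the floxed controls. These controls are stated to be littermates of DKO and not of Rab30L-/- or Cpt2L-/-, so in both comparisons genotype and litter cannot be told apart. Of the 10 markers 1 was called, Btnl9, against 0.479% of all genes tested. Btnl9 read 0.688, 1.70, 0.670 and 0.606 CPM in Rab30L-/- and 5.62, 3.38, 6.52 and 3.08 CPM in the floxed controls. The livers of the genotypes did not overlap, and the lowest control stood above the highest Rab30L-/- liver. The log2 fold change was -2.33 (SE 0.41, edgeR adjusted p = 0.0338), from a mean of 4.65 CPM to 0.917 CPM. The call rested on 8 to 92 counts per library. It was lost when any 1 of Rab30L-/- replicates 1, 3 and 4 or floxed replicates 1, 2 and 3 was left out, with adjusted p up to 0.119, and the log2 fold changes over all 8 such fits ran from -2.79 to -2.12. A fit over all 24 libraries gave -2.33 with adjusted p = 0.197.

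The other 9 markers did not pass this test. Clec4g read 24.01, 23.9, 30.7 and 22.7 CPM in Rab30L-/-, where the floxed controls began at 29.9 CPM. It differed by -0.53 (SE 0.15, unadjusted p = 0.00452, edgeR adjusted p = 0.197) and Oit3 by -0.52 (SE 0.16, edgeR adjusted p = 0.232). Oit3 read 21.03, 21.9, 23.8 and 18.9 CPM in Rab30L-/- and 23.8, 36.6, 30.5 and 32.9 CPM in the floxed controls, so the lowest control stood just above the highest Rab30L-/- liver. Limma-voom with quality weights called Clec4g, Oit3 and Btnl9, and 1.77% of all genes. The median of the 10 was -0.33 on the log2 scale with 9 of 10 below 0, while the median of all genes was 0.00. It was -0.19 without floxed replicate 3 and -0.10 on a scale set by the 30 pan-endothelial genes, where the median of all genes stood at 0.20.

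Most of the other endothelial genes also had values below 0 without passing: 25 of 30 pan-endothelial genes and 11 of 14 other sinusoidal genes had log2 fold changes below 0, with medians of -0.23 and -0.32 and no gene called. Adgrl4, an adhesion receptor of endothelium, differed by -0.74 (edgeR adjusted p = 0.0523) and Bmp2, an endothelial ligand that prompts hepatocytes to make hepcidin, by -0.83 (edgeR adjusted p = 0.0837). All 12 Kupffer cell genes lay on the other side of 0 with a median of 0.61, and their summed level ran from 288 to 794 CPM in Rab30L-/- against 229 to 416 CPM in the floxed controls. Of 12 stellate cell genes 9 were also above 0, with a median of 0.37 and 3 unadjusted p-values under 0.05. None of the genes of both lists was called or at 0 in every library of a genotype, and their part in the marker values was not tested.

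**Figure D2:**
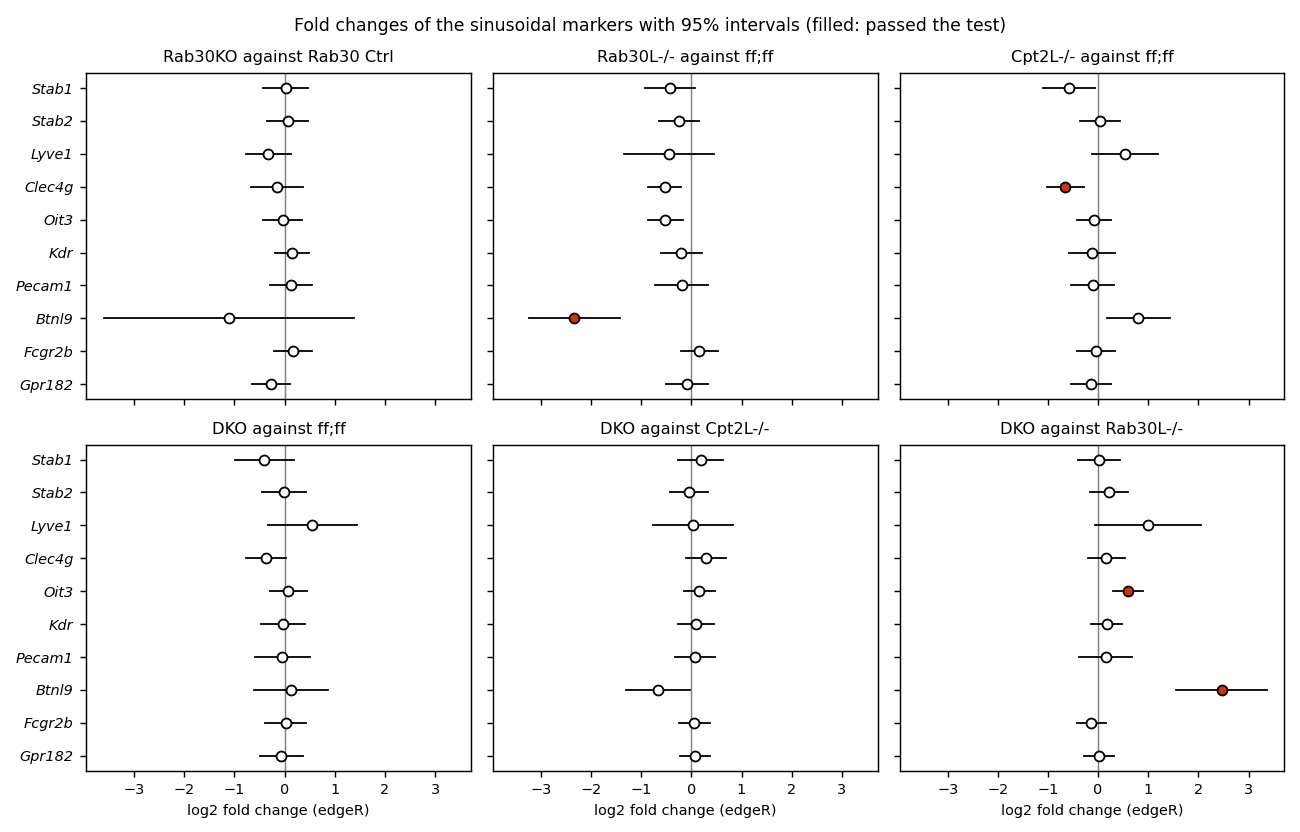
Log2 fold change of each marker in the 6 comparisons (points) with its 95% interval (lines), from edgeR's quasi-likelihood fit; filled points passed the test. Btnl9 in Rab30L-/- against ff;ff, Clec4g in Cpt2L-/- against ff;ff, and Oit3 and Btnl9 in DKO against Rab30L-/- were the 4 that passed.

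Cpt2L-/- livers, in which hepatocytes cannot oxidise long-chain fatty acids in mitochondria, were compared with the floxed controls. Clec4g was the 1 marker of 10 that was called, and it fell. Its levels were 20.7, 19.8, 30.1 and 22.7 CPM in Cpt2L-/- and 29.9, 39.3, 41.8 and 37.2 CPM in the floxed controls. Only the highest Cpt2L-/- liver reached the lowest control. The fitted fold was 0.636 (95% interval 0.494 to 0.819), a log2 fold change of -0.65 (SE 0.17, edgeR adjusted p = 0.013). Of all genes tested 23.8% were called, 11.9% higher and 11.9% lower, and no test set the markers against this background. The share of markers called was below that background here and in 13 of 16 alternatives, and above it in the other 3. Those were limma-voom (4 of 10 markers against 31.8% of genes), the test without a filter (3 of 10 against 13.7%) and the fit without floxed replicate 3 (3 of 10 against 25.4%). Clec4g shares 146 exonic bases with the antisense gene Gm16553, and without a stated strand setting the counts of these bases cannot be told apart.

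Without any 1 of the 8 livers Clec4g kept its call, with adjusted p from 0.00469 to 0.0487. It lost the call on a scale set by the 30 pan-endothelial genes, where it differed by -0.40 (edgeR adjusted p = 0.16). On that scale the median of all genes stood at 0.24.

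Stab1 and Btnl9 had unadjusted p-values under 0.05 and did not pass after adjustment. With Clec4g these were 3 of 10 markers, against 35.7% of all genes. Stab1 read 57.2, 52.0, 42.4 and 65.4 CPM in Cpt2L-/- and 50.3, 86.1, 120 and 71.9 CPM in the floxed controls, a log2 fold change of -0.58 (SE 0.24, edgeR adjusted p = 0.097). Floxed replicate 1 was the lowest of the controls for Stab1 and replicate 3 the highest, and without replicate 1 Stab1 passed (-0.76, adjusted p = 0.0165), whereas without replicate 3 it differed by -0.34 (adjusted p = 0.24). Stab2, its closest relative, differed by 0.04 (95% interval -0.36 to 0.44). Btnl9 read 8.49, 5.81, 10.98 and 6.63 CPM in Cpt2L-/-, a log2 fold change of 0.80 (SE 0.29, edgeR adjusted p = 0.0612), and passed without floxed replicate 3 (adjusted p = 0.0206). Lyve1 was called with Clec4g and Btnl9 when that replicate was left out, so that the markers called ranged from 1 to 3.

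The values of 5 further markers lay between -0.14 and -0.03, and Lyve1 differed by 0.53 (-0.12 to 1.19). Oit3 differed by -0.08 (-0.43 to 0.26), Kdr by -0.12 (-0.58 to 0.33), Pecam1 by -0.11 (-0.53 to 0.32), Fcgr2b by -0.03 (-0.41 to 0.34) and Gpr182 by -0.14 (-0.55 to 0.26). The bounds of these 5 intervals ran from 0.670-fold for Kdr to 1.27-fold for Fcgr2b. The median of the 10 markers was -0.09, against 0.00 for all genes. It was 0.02 without floxed replicate 2, -0.15 without floxed replicate 1 and -0.19 with limma-voom. On the pan-endothelial scale it was 0.18, where the median of all genes stood at 0.24.

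Around the 10 markers, 5 of 14 other sinusoidal genes fell in Cpt2L-/-, with a list median of -0.37. They were Adam23, a disintegrin-like membrane protein (-1.02, edgeR adjusted p = 0.000251), Plxnc1, a semaphorin receptor (-0.94, adjusted p = 0.000451), Maf, a transcription factor of sinusoidal endothelium (-0.61, adjusted p = 0.0141), Dnase1l3, a secreted nuclease (-0.87, adjusted p = 0.0181), and Aqp1, a water channel (-0.47, adjusted p = 0.0489). Of the 30 pan-endothelial genes 3 fell and none rose, with a median of -0.24. S1pr1, the sphingosine 1-phosphate receptor, fell by 1.80 on the log2 scale (edgeR adjusted p = 0.00073), and Adgrl4 and the tetraspanin Tspan7 were the other two. Genes of other vessels showed 3 of 8 lower, namely Ephb4, the ephrin receptor of veins (-1.12), Vcam1 (-0.71) and Selp (-1.14), with a list median of -0.53. In the VEGF and angiopoietin list 1 of 12 passed, Nrp2, a VEGF-C co-receptor, which rose by 0.62 (edgeR adjusted p = 0.0389), and the median was -0.02. None of the 11 endothelial signal genes tested passed, with a median of -0.25.

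Markers of other cell types also moved in this comparison. Of 12 Kupffer cell genes 3 fell, Clec4f (-0.69), Vsig4 (-0.65) and Timd4 (-0.93), and the lysosomal gene Cd68 rose by 2.60, and their summed level ran from 222 to 313 CPM in Cpt2L-/- and from 229 to 416 CPM in the floxed controls. The Kupffer list median was -0.43. Hepatocyte genes showed 6 of 10 lower with a median of -0.83, and 4 of 5 red cell genes fell, with a median of -1.42. Of the 5 bile duct genes tested 1 fell, with a median of -0.83. No stellate gene of 12 was called, with a median of 0.37, and 1 of 8 leukocyte genes was tested and not called (-0.15). No gene of the Kupffer, hepatocyte, red cell and stellate lists was at 0 in every library of either genotype, and their part in the Clec4g result was not tested.

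**Figure D3:**
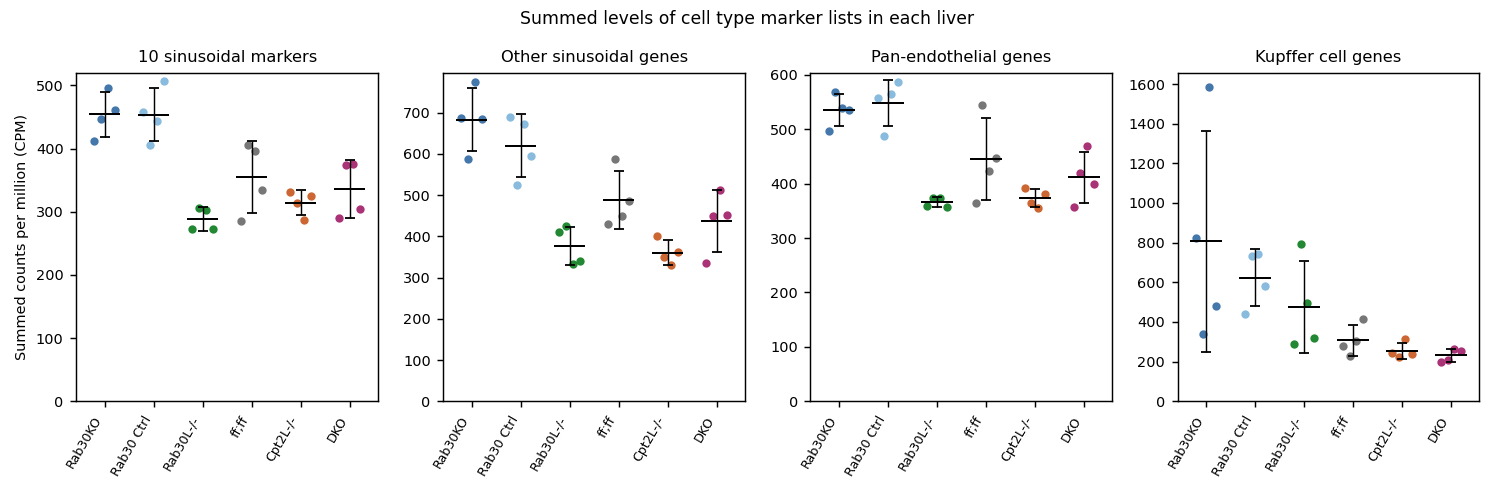
Summed level (CPM, linear axis from 0) of the 10 sinusoidal markers, 14 other sinusoidal genes, 30 pan-endothelial genes and 12 Kupffer cell genes in each liver; the wide bar is the mean of 4 livers and the whiskers are 1 SD. The summed 10 markers lie between 272 and 406 CPM in Rab30L-/-, the floxed controls, Cpt2L-/- and DKO and between 406 and 507 CPM in Rab30KO and Rab30 Ctrl, and the Kupffer sum is more scattered than the endothelial sums in Rab30KO.

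DKO livers were set against the same floxed controls, so the values below share those 4 libraries with the ones for Cpt2L-/-. None of the 10 markers was called by edgeR or DESeq2 and none had an unadjusted p under 0.05, while limma-voom called Clec4g and 27.9% of all genes. Over all genes tested edgeR called 16.1%, 7.87% higher and 8.24% lower. Clec4g read 19.5, 29.9, 29.1 and 37.0 CPM in DKO, a log2 fold change of -0.37 (95% interval -0.77 to 0.03, edgeR adjusted p = 0.208), and Cpt2L-/- gave -0.65. Stab1 differed by -0.40 (-0.99 to 0.19) and Lyve1 by 0.55 (-0.33 to 1.44). Single livers moved these values by over 1.5 times: Stab1 differed by -0.16 without floxed replicate 3 and by -0.24 without DKO replicate 4, Lyve1 by 0.27 without DKO replicate 3 and by 0.91 without floxed replicate 3, and Clec4g by -0.22 without DKO replicate 1. The median of the 10 was -0.03, against -0.02 for all genes. None of the 14 other sinusoidal genes passed, and of the 30 pan-endothelial genes S1pr1 did, with a fall of 1.23 on the log2 scale (edgeR adjusted p = 0.0212). Of the 12 Kupffer cell genes 6 fell and 1 rose, with a median of -0.61, and 6 of 10 hepatocyte genes (median -0.75) and 2 of 6 bile duct genes (median -0.99) fell.

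The comparison of DKO with Cpt2L-/- asks about the loss of Rab30 in hepatocytes that already lack Cpt2. The labels do not make these mice littermates, so genotype and litter cannot be told apart. None of the 10 markers was called by edgeR or DESeq2, and 2.71% of all genes were called by edgeR. Limma-voom called Btnl9 and 1534 of 13306 genes in all. Btnl9 was the 1 marker with an unadjusted p under 0.05. It read 3.08, 3.85, 7.83 and 5.47 CPM in DKO against 5.81 CPM or more in every Cpt2L-/- liver, a log2 fold change of -0.67 (95% interval -1.31 to -0.03, edgeR adjusted p = 0.21). The log2 fold changes of the other 9 lay between -0.05 for Stab2 and 0.29 for Clec4g (-0.11 to 0.69). Among the 14 other sinusoidal genes Dnase1l3 rose by 0.67 (edgeR adjusted p = 0.0372), and 12 of the 14 were above 0 with a median of 0.27. Of the 30 pan-endothelial genes 19 were above 0 with a median of 0.09, and none was called. In edgeR 7 of the 14 and 7 of the 30 had an unadjusted p under 0.05, as did 21.7% of all genes. Of 8 genes of other vessels, Plvap, the diaphragm protein of fenestrae, fell by 0.46 (edgeR adjusted p = 0.0462).

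The comparison of DKO with Rab30L-/- asks about the loss of Cpt2 where Rab30 was already absent, and shares no library with that of Cpt2L-/- and the floxed controls. Of the 10 markers 2 rose and none fell, where 30.7% of all genes were called, 14.9% higher and 15.8% lower. The 2 of 10 were thus below the share of genes called in either direction and above the share called higher. Counted in either direction, the share of markers was above that of all genes in 2 of 16 alternatives, the test without a filter (2 of 10 markers against 15.5% of genes) and the fit without Rab30L-/- replicate 3 (3 of 10 against 26.4%). Oit3 read 26.3, 34.7, 37.8 and 32.1 CPM in DKO against 18.9 to 23.8 CPM in Rab30L-/-, with no overlap. The fitted fold was 1.51 (95% interval 1.23 to 1.85, log2 fold change 0.59, SE 0.13, edgeR adjusted p = 0.00689), and it kept the call without any 1 of the 8 livers. Btnl9 stood at 5.06 CPM ± 2.10 in DKO and 0.917 CPM ± 0.526 in Rab30L-/- (SD, n = 4), a log2 fold change of 2.46 (SE 0.41, edgeR adjusted p = 0.00125), and kept its call likewise. Genotype and litter cannot be told apart here either, and Btnl9 was also low in a wild-type Rab30 Ctrl liver (0.268 CPM). Mitochondrial transcripts took 6.60% to 7.67% of the counts in DKO and 4.31% to 4.86% in Rab30L-/-. Whether this difference plays a part in the marker values was not tested. Clec4g did not pass in this comparison. It differed by 0.16 (95% interval -0.21 to 0.54), against -0.65 between Cpt2L-/- and the floxed controls. The difference between these values is the interaction tested below.

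Lyve1 ranged from 7.42 to 39.5 CPM over the 24 livers. It read 13.7, 33.1, 39.5 and 17.0 CPM in DKO and 7.42, 9.09, 23.4 and 10.8 CPM in Rab30L-/-, with overlap through 1 liver of Rab30L-/-. Its log2 fold change was 0.998 (SE 0.46, edgeR adjusted p = 0.139), and DESeq2 called it, with 33.5% of all genes called. Without Rab30L-/- replicate 3, the liver that overlapped, Lyve1 passed at 1.47 (edgeR adjusted p = 0.0265), where 26.4% of all genes were called. Of 14 other sinusoidal genes Cyp4b1 (0.80) and Ehd3 (0.51) rose and Gata4 (-0.39), a transcription factor of sinusoidal identity, fell. In DKO 4 of 30 pan-endothelial genes rose, among them Adgrl4 (0.79), Robo4 (0.53) and Ptprb (0.48), and S1pr1 (-1.10) and Cldn5 (-0.77) fell. Of the endothelial signals Bmp2 rose by 0.77 (edgeR adjusted p = 0.00303) and Rspo3, the R-spondin of central vein endothelium, by 0.87 (edgeR adjusted p = 0.0261), while the Notch ligand Dll1 fell by 0.83 (edgeR adjusted p = 0.0433). Of 12 Kupffer cell genes 9 fell and Cd68 rose, with a list median of -1.24, and their sums ran from 199 to 266 CPM in DKO against 288 to 794 CPM in Rab30L-/-. All 10 hepatocyte genes were below 0, with a median of -0.68 and 6 called lower. Of the 4 bile duct genes tested 2 fell, with a median of -1.21, and 1 of 12 stellate cell genes fell, with a median of -0.22. Their part in the marker values was not tested.

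Whether the loss of Rab30 changed the markers differently with and without Cpt2 was tested as the interaction, the difference of DKO from Cpt2L-/- minus that of Rab30L-/- from the floxed controls. The floxed controls are stated to be littermates of DKO and not of Rab30L-/- or Cpt2L-/-. Genotype and litter thus cannot be told apart in this value either. None of the 10 passed edgeR at an adjusted p under 0.05, where 4.06% of all genes did. Clec4g, Oit3 and Btnl9 had unadjusted p-values under 0.05, with interaction values of 0.82 (SE 0.25, edgeR adjusted p = 0.0655), 0.68 (SE 0.21, adjusted p = 0.0719) and 1.67 (SE 0.51, adjusted p = 0.0713) on the log2 scale. Over all genes 21.7% had such a p. DESeq2 called all 3, where it called 7.68% of all genes, and limma-voom called Clec4g and Oit3, where it called 9.02%. In all 3 the Rab30L-/- livers stood below the floxed controls on average, whereas the DKO livers stood above Cpt2L-/- for Clec4g and Oit3 and below it for Btnl9. Leaving out 1 library of 16 gave 0 to 2 calls. Clec4g passed without floxed replicate 1, Cpt2L-/- replicate 3 or DKO replicate 1. Oit3 passed without floxed replicate 1 and Btnl9 without Rab30L-/- replicate 2. The fits in which a marker passed called 2.37% to 2.91% of all genes.

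Among the other sinusoidal genes 4 of 14 passed the interaction, all above 0: Dnase1l3 (1.25, edgeR adjusted p = 0.0253), Plxnc1 (1.18, adjusted p = 0.0301), Adam23 (1.11, adjusted p = 0.0324) and Cyp4b1 (1.12, adjusted p = 0.044). Adgrl4 (1.27, adjusted p = 0.000304) and Tspan7 (0.93, adjusted p = 0.0418) were the 2 of 30 pan-endothelial genes that did, and Bmp2 (1.23, adjusted p = 0.0115) the 1 of 12 endothelial signals. The medians were 0.38 for the 10 markers, 0.56 for the other sinusoidal genes and 0.49 for the pan-endothelial genes, against -0.01 for all genes. On the scale set by the pan-endothelial genes the median of the 10 markers was 0.05, and that of all genes stood at -0.31. Among the other cell types, all 12 Kupffer cell genes had interaction values below 0, with a median of -0.81, 5 unadjusted p-values under 0.05 and none called. Of 12 stellate cell genes 10 were below 0, with a median of -0.38, and Colec11, a collectin, was called (-1.15, edgeR adjusted p = 0.0448). The red cell, bile duct and hepatocyte lists lay on the side of the markers, with 5 of 5, 4 of 6 and 6 of 10 genes above 0 and medians of 0.73, 0.33 and 0.15. No gene of the Kupffer and stellate lists was at 0 in every library of a genotype, and the part of these cell types in the marker values was not tested.

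Kdr and Fcgr2b were higher in Rab30KO and Rab30 Ctrl than in the other 4 genotypes. Kdr stood at 60.5 CPM or more in each of the 8 Rab30KO and Rab30 Ctrl livers and at 59.3 CPM or less in each of the other 16, and Fcgr2b at 55.7 CPM or more and at 48.6 CPM or less. Rab30 Ctrl and the floxed controls, neither of which carries a deletion, were compared after these levels were seen. None of the 10 passed edgeR, where 0.949% of all genes were called, and 5 had an unadjusted p under 0.05, as did 13.2% of all genes. Fcgr2b differed by 0.83 (SE 0.19, edgeR adjusted p = 0.0642), and DESeq2 and limma-voom each called it and no other marker, with 4.16% and 2.37% of all genes called. Kdr differed by 0.64, Gpr182 by 0.63, Lyve1 by 0.69 and Oit3 by 0.41. The median of the 10 was 0.39, and it was 0.08 on the pan-endothelial scale, where that of all genes stood at -0.34. Of the 30 pan-endothelial genes 26 were above 0 (median 0.35) and of the 14 other sinusoidal genes 13 (median 0.33), and none was called. A fit over all 24 libraries called Kdr, Fcgr2b and Gpr182, and 2.07% of all genes. Of the 12 Kupffer cell genes 4 were called higher in Rab30 Ctrl and 11 had an unadjusted p under 0.05 in edgeR. Their sums were 440 to 743 CPM against 229 to 416 CPM. Of the 2 leukocyte genes tested 1 was called higher, and the 8 listed summed to 15.9 to 27.0 CPM against 5.88 to 11.1 CPM. The part of these cells in the marker values was not tested. Rab30 Ctrl are littermates of Rab30KO and the floxed controls of DKO, so litter and floxed alleles cannot be told apart here.

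The level of Btnl9 was split between livers of the same genotype. It was at 0.547 CPM and below in Rab30KO replicates 1 and 3 but at 3.54 and 3.12 CPM in replicates 2 and 4. In Rab30 Ctrl it read 6.54, 2.79, 6.03 and 0.268 CPM. Low livers thus occurred in 3 genotypes, wild-type littermates among them. Rab30KO replicate 3 held 0 counts of Btnl9, which allows a level of up to 0.211 CPM (3 counts, for counting error only).

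Btnl9 lies on chromosome 11 at 49165585 to 49187159 (GRCm38, minus strand). Ifi47, an interferon-induced GTPase gene that lies 68.6 kb away, and Pttg1, the securin gene that lies 5.74 Mb away on the same chromosome, were looked at after the values of Btnl9 had been seen. Ifi47 read 27.8 to 42.5 CPM in the 4 Rab30L-/- livers and 95.02 and 77.8 CPM in Rab30KO replicates 1 and 3, against 2.36 to 13.9 CPM in the floxed, Cpt2L-/- and DKO livers. It read 16.3 and 25.9 CPM in Rab30KO replicates 2 and 4 and 18.3, 17.7, 30.4 and 18.1 CPM in Rab30 Ctrl, where replicate 4, low in Btnl9, was not set apart and replicate 3, high in Btnl9, lay within the range of Rab30L-/-. Pttg1 read 0.834 to 1.87 CPM in Rab30L-/- and 10.04 CPM or more in the floxed, Cpt2L-/- and DKO livers. In Rab30KO it read 1.17, 13.5, 1.47 and 1.72 CPM, and in Rab30 Ctrl 13.5, 14.5, 1.62 and 1.48 CPM. Pttg1 was thus low in 9 livers, of which 7 were also among those with Btnl9 under 2 CPM, and the other two, Rab30KO replicate 4 and Rab30 Ctrl replicate 3, had 3.12 and 6.03 CPM of Btnl9. Zfp62 and Mgat1, closer to Btnl9 at 16.1 and 57.0 kb, were not split in this way, at 9.82 to 21.7 and 47.5 to 105 CPM over all livers. A difference in genetic background between the litters or colonies was not tested. In the calls of Btnl9 between Rab30L-/- and the floxed controls and between DKO and Rab30L-/- it cannot be told apart from genotype. The same holds for the interaction value of Btnl9, which includes the Rab30L-/- livers.

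**Figure D4:**
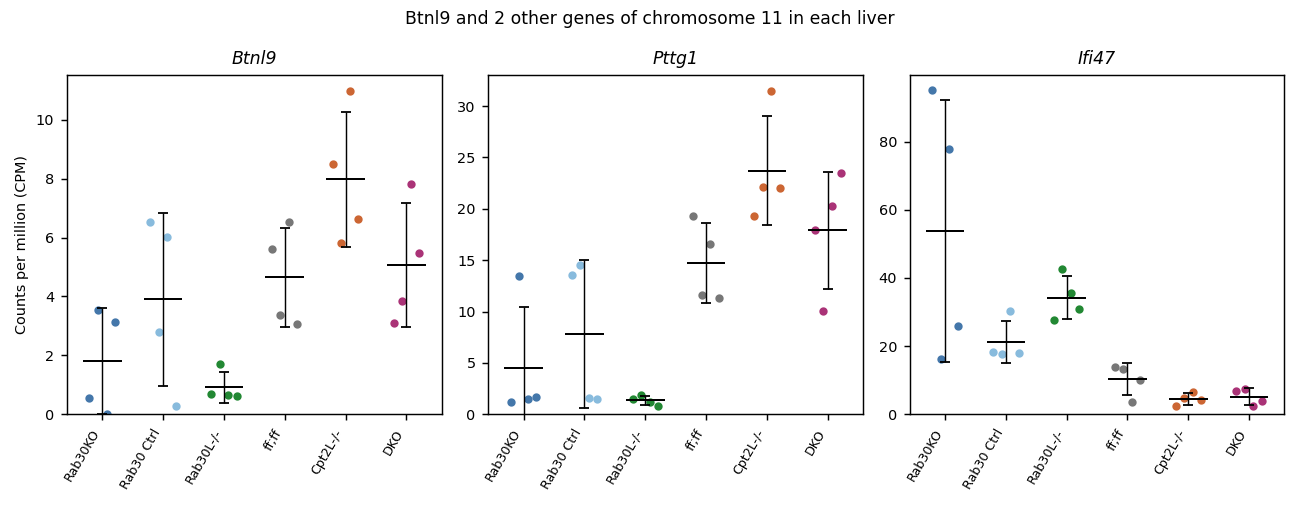
Level of Btnl9, Pttg1 and Ifi47 (CPM, linear axis from 0) in each liver by genotype; the wide bar is the mean of 4 livers and the whiskers are 1 SD, drawn down to 0 where they would pass below it. Btnl9 and Pttg1 are low in all 4 Rab30L-/- livers and in some Rab30KO and Rab30 Ctrl livers, and Ifi47 has its highest means in Rab30KO and Rab30L-/-.

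From liver to liver within genotypes the 10 markers were only loosely tied. With the genotype means removed, the 45 pairs had a median Pearson r of 0.22 over the 24 libraries, and 29 pairs were above 0. Stab1 and Stab2 had the highest value (r = 0.77), followed by Oit3 and Gpr182 (r = 0.70), and Stab1 and Fcgr2b the lowest (r = -0.74). Floxed replicate 3 shows this opposition in 1 liver, with the highest Stab1 of all 24 libraries at 120 CPM beside the lowest Fcgr2b at 25.9 CPM and the lowest Kdr at 29.4 CPM. Oit3 followed the mean of the other markers most closely (r = 0.78), then Gpr182 (0.68), Pecam1 (0.60) and Lyve1 (0.50), whereas Kdr (0.03), Fcgr2b (-0.06) and Btnl9 (-0.12) did not follow it. These values describe points that share library depth and preparation, and no test was made of them.

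Among 11586 protein-coding genes outside the 10, ranked by the same correlation with the mean of the markers, the first 10 were Flt1 (r = 0.83), Timp3 (0.82), Pcdh12 (0.77), Arap3 (0.76), Cdh5 (0.76), Robo4 (0.75), Tie1 (0.73), Uaca (0.73), Adgrf5 (0.72) and Adamts1 (0.69). Flt1, Cdh5, Robo4 and Tie1 belong to the pan-endothelial list: a VEGF receptor, the cadherin of endothelial junctions, a roundabout receptor and an orphan receptor of the angiopoietin system. All 10 positions of the markers in the count table matched GENCODE M21. Stab1, Stab2, Clec4g, Fcgr2b and Gpr182 share 74 to 155 exonic bases with a gene on the opposite strand, and Fcgr2b has close relatives in its receptor family, between which the assignment of reads is not given in the sources used here.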

How the data were processed

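RNA was sequenced from 24 livers, 4 per genotype, and the genotypes were read from the sample labels. The authors deposited raw read counts per gene and FPKM values (fragments scaled to gene length and library size), both used here. HISAT2, DESeq2 and the build GRCm38 (mm10) appear in the submitters' processing notes, while the counting tool, annotation version and strand setting are not given in the sources used here. The deposited tables of log2 fold changes and p-values hold the authors' own comparisons and were not used, nor was a table of normalized counts. The count columns of all 24 samples matched their titles, and 0 columns were left without a sample.

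Counts were filtered with filterByExpr, scaled by TMM and tested with edgeR 4.0.16 (R 4.3.3, quasi-likelihood, robust) on the groups compared. P-values were adjusted by Benjamini-Hochberg over all genes tested, and a gene was called at an adjusted p under 0.05 and at least 1.2-fold, or by the adjusted p alone for the interaction. Levels are CPM, counts scaled to library size after TMM. The 95% intervals are those of single log2 fold changes and are not adjusted for the number of genes. Each library is 1 mouse, so the p-values set a difference against the spread between mice of the same genotype. That spread need not cover differences between litters. Totals of 11801027 to 24497738 counts set the precision. Alternatives were DESeq2 1.42.0, limma-voom (limma 3.58.1) with quality weights, DESeq2's size factors, a fit over all 24 libraries, no filter, a minimum of 10 counts per library, calls without the fold threshold, a scale set by the pan-endothelial genes, FPKM order against CPM divided by gene length, and each library left out in turn. The comparison of Rab30 Ctrl with the floxed controls was added after the levels were seen. For correlations the genotype means of log2 CPM (prior count 0.5) were removed, and genes with a mean of at least 1 CPM were ranked.

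The 10 markers and the other lists were chosen with earlier results of these data known. All 10 markers are described. From the other lists the named genes were to be up to 4 by lowest adjusted p in Cpt2L-/- against the floxed controls, and genes compared with a marker by role. Others, such as the fifth sinusoidal gene called there and genes called in other comparisons, were named after their values were seen. Counts and medians of all lists are given for Cpt2L-/- against the floxed controls, and for other comparisons those of the lists set beside the markers. The steps were tested on simulated counts. Promoter letters came from the RefSeq table (GRCm38.p6). Figures were drawn with matplotlib 3.10.9.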

Additional observations from a re-analysis of the deposited data

Results flagged for a closer look

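In 3 of the 60 sets of 4 livers (10 markers in 6 genotypes) 1 liver lay far from the other 3, and chance alone marks about 1 in 20 such sets. Clec4g read 30.67 CPM in Rab30L-/- replicate 3, where the other 3 livers read 22.67 to 24.01 CPM. Kdr read 57.46 CPM in DKO replicate 2, where the others read 40.72 to 42.36 CPM. Btnl9 read 1.704 CPM in Rab30L-/- replicate 2, where the others read 0.6064 to 0.6883 CPM. With this liver left out, the difference of Btnl9 between Rab30L-/- and the floxed controls kept its call. For Kdr the log2 fold change of DKO against Cpt2L-/- was -0.04 without DKO replicate 2 and 0.10 with it, and it passed in neither.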

How the results depend on the processing

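Depth limits Btnl9, which had 0 to 172 counts per library, and 4 livers per genotype limit the rest. No paired analysis was possible because the labels give the genotypes no shared replicate numbers. The 4 values called were recomputed under 62 alternatives, of which 54 kept the call and its direction, 8 lost the call and 0 turned the direction. The 8 were Btnl9 in Rab30L-/- without 6 of the 8 libraries and in the fit over all 24 libraries, and Clec4g in Cpt2L-/- on the pan-endothelial scale. Of 1283 alternatives to the 76 values not called, 32 gained a call, 1153 stayed as they were and 98 changed sign, all without passing the test.

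In Rab30L-/- against the floxed controls 3 markers were called with limma-voom and 0 in the fit over all 24 libraries. There were also 0 with at least 10 counts in every library, where Btnl9 was no longer tested, and 0 to 1 with 1 library left out. In Cpt2L-/- against the floxed controls DESeq2 called 2, limma-voom 4 and the test without a filter 3, and 1 to 3 were called with 1 library left out. The pan-endothelial scale also called 1 there, Btnl9 in place of Clec4g. Limma-voom called 1 in DKO against the floxed controls and 1 in DKO against Cpt2L-/-. With at least 10 counts in every library 1 was called in DKO against Rab30L-/-, where Btnl9 was again not tested. In Rab30 Ctrl against the floxed controls DESeq2, limma-voom and the test without a filter called 1 each and the fit over all 24 libraries 3. In the interaction DESeq2 called 3, limma-voom 2, and 0 to 2 were called with 1 library left out. Beyond the filter and the libraries left out, the causes were not tested.

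None of the log2 fold changes that changed sign was called. Rab30KO against Rab30 Ctrl gave Stab1 -0.024 with limma-voom. Cpt2L-/- against the floxed controls gave Stab2 -0.031 with limma-voom. DKO against the floxed controls gave Oit3 -0.13 and Fcgr2b -0.12 with limma-voom. DKO against Cpt2L-/- gave Stab2 0.026, Lyve1 -0.30 and Pecam1 -0.15 with limma-voom. DKO against Rab30L-/- gave Stab1 -0.026 with limma-voom. Rab30KO against Rab30 Ctrl gave Oit3 0.034 on the pan-endothelial scale. Rab30L-/- against the floxed controls gave Kdr 0.015, Pecam1 0.038 and Gpr182 0.15 on the pan-endothelial scale. Cpt2L-/- against the floxed controls gave Oit3 0.19, Kdr 0.13, Pecam1 0.17, Fcgr2b 0.19 and Gpr182 0.13 on the pan-endothelial scale. DKO against the floxed controls gave Stab2 0.17, Kdr 0.13, Pecam1 0.11 and Gpr182 0.10 on the pan-endothelial scale. DKO against Cpt2L-/- gave Lyve1 -0.14, Pecam1 -0.065, Fcgr2b -0.034 and Gpr182 -0.0303 on the pan-endothelial scale. DKO against Rab30L-/- gave Stab1 -0.053 and Gpr182 -0.046 on the pan-endothelial scale. Rab30 Ctrl against the floxed controls gave Clec4g -0.081 and Pecam1 -0.023 on the pan-endothelial scale. The interaction gave Stab2 -0.14, Kdr -0.0067, Pecam1 -0.10 and Gpr182 -0.18 on the pan-endothelial scale. Rab30KO against Rab30 Ctrl gave Stab1 -0.13 to 0.15, Stab2 -0.070 to 0.21, Clec4g -0.28 to 0.054, Oit3 -0.15 to 0.075 and Pecam1 -0.075 to 0.25 with 1 library left out. Rab30L-/- against the floxed controls gave Gpr182 -0.22 to 0.047 with 1 library left out. Cpt2L-/- against the floxed controls gave Stab2 -0.099 to 0.14, Oit3 -0.19 to 0.011, Kdr -0.29 to 0.019, Pecam1 -0.25 to 0.053 and Fcgr2b -0.17 to 0.074 with 1 library left out. DKO against the floxed controls gave Stab2 -0.16 to 0.12, Oit3 -0.036 to 0.17, Kdr -0.20 to 0.11, Pecam1 -0.24 to 0.12, Btnl9 -0.17 to 0.34, Fcgr2b -0.12 to 0.12 and Gpr182 -0.21 to 0.055 with 1 library left out. DKO against Cpt2L-/- gave Stab2 -0.16 to 0.085, Lyve1 -0.27 to 0.23, Kdr -0.038 to 0.21, Pecam1 -0.14 to 0.22, Fcgr2b -0.063 to 0.14 and Gpr182 -0.0079 to 0.17 with 1 library left out. DKO against Rab30L-/- gave Stab1 -0.11 to 0.19, Pecam1 -0.035 to 0.34 and Gpr182 -0.057 to 0.11 with 1 library left out. Rab30 Ctrl against the floxed controls gave Stab1 -0.40 to 0.014 and Btnl9 -0.58 to 0.16 with 1 library left out. The interaction gave Fcgr2b -0.22 to 0.043 with 1 library left out.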

Other observations

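S1pr1, Ephb4 and Nrp2 are among the other endothelial genes that were called in more than 1 comparison. S1pr1 read 8.30 CPM on average in Cpt2L-/- and 29.3 CPM in the floxed controls, and 12.5 CPM in DKO against 26.4 CPM in Rab30L-/-, which share no library. Ephb4 read 26.9 CPM in Cpt2L-/- and 59.2 CPM in the floxed controls, and 31.4 CPM in DKO against 46.0 CPM in Rab30L-/-. Nrp2 stood the other way, at 16.5 against 10.8 CPM and at 25.1 against 12.4 CPM. All 3 genes passed in both comparisons, where 23.8% and 30.7% of all genes were called. Genotype and litter cannot be told apart in either of them. Each is also made by cells outside the endothelium, so the source of these RNAs in bulk liver cannot be told from the counts.

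Of the other genes on chromosome 11, Tgtp1 read 151 and 280 CPM in Rab30KO replicates 1 and 3 and 3.003 and 3.57 CPM in replicates 2 and 4, and Rab30KO replicates 1 and 3 were also the Rab30KO livers with the lowest Btnl9. Other livers did not all pair these genes in this way. Tgtp1 read 3.29 CPM in Rab30L-/- replicate 1 and 17.9, 10.8 and 9.40 CPM in replicates 2, 3 and 4, all low in Btnl9. It read 2.41 CPM in Rab30 Ctrl replicate 4, also low in Btnl9, and 22.9 CPM in replicate 3, which had 6.03 CPM of Btnl9. The floxed, Cpt2L-/- and DKO livers read 4.46 CPM of Tgtp1 or less. Tgtp2 read 73.1 and 147 CPM in Rab30KO replicates 1 and 3 and 1.23 and 1.47 CPM in replicates 2 and 4. It read 2.22 to 14.0 CPM in Rab30L-/-, 1.61 to 8.39 CPM in Rab30 Ctrl and 1.41 CPM or less in the floxed, Cpt2L-/- and DKO livers. Tgtp1 and Tgtp2 are near-identical copies, so the division of reads between them is uncertain. The summed Kupffer cell genes read 825 and 1585 CPM in Rab30KO replicates 1 and 3 and 339 and 482 CPM in replicates 2 and 4. The summed leukocyte genes read 27.6 and 52.5 CPM in replicates 1 and 3 and 12.5 and 21.9 CPM in replicates 2 and 4. The part of these cells in the Tgtp1, Tgtp2 and Btnl9 values was not tested.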
